A study of Mus musculus with 28 samples.

Results

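The 9 genes described here are the classical cell cycle cyclins of the mouse: the D cyclins *Ccnd1*, *Ccnd2* and *Ccnd3*, the E cyclins *Ccne1* and *Ccne2*, the A cyclins *Ccna1* and *Ccna2*, and the B cyclins *Ccnb1* and *Ccnb2*. They were chosen by name, and the RPKM values (reads normalized to transcript length and to the mapped reads of a library) of all transcripts of each gene were summed, which gave 9 of the 27978 genes measured. Bulk RNA-seq was made from 28 libraries of 13 mice, of which 20 hold germ cells sorted by DNA stain (Hoechst) flow cytometry from 8 mice, 7 hold a whole testis and 1 a whole ovary. Sorted libraries comprised spermatogonia (2 wildtype, 2 knockout), primary spermatocytes (2 wildtype, 4 knockout), secondary spermatocytes (2 wildtype, 3 knockout) and spermatids (3 wildtype, 2 knockout). The whole testes came from 2 wildtype and 5 *Csmd1* knockout mice, and the ovary from a wildtype mouse. The labels give C57BL/6 as the strain of all mice and no treatment, whereas the study's methods describe a colony of mixed strain background. The knockout is a constitutive deletion of the first exon and part of the first intron of *Csmd1*, a membrane protein that regulates complement, replaced by a lacZ and neomycin cassette in every cell of the mouse. The labels give no age. According to the methods sexually mature males were sorted. The study also describes whole testes of immature males, and which testis, if any, is of that kind was not given in the labels used here. One testis of a mouse was kept whole and the other sorted, so libraries of the same mouse are not independent.

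Cyclins are the regulatory subunits of cyclin-dependent kinases (CDKs). Those of the E, A and B types are made and destroyed at set points of the cell cycle. D cyclins pair with CDK4 and CDK6 to phosphorylate the retinoblastoma protein in G1, E cyclins activate CDK2 at the entry into S phase, A cyclins act in S phase and G2, and B cyclins activate CDK1 to drive division. In the testis, spermatogonia divide by mitosis, primary spermatocytes pass through a long meiotic prophase, secondary spermatocytes complete the second meiotic division without replicating their DNA, and spermatids no longer divide. *Ccna1* is known as the A cyclin of male meiosis, and male mice that lack it are sterile because spermatocytes do not divide.

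An estimated 23796181 to 61632239 mapped reads (median 45337980) lay behind 27 of the libraries. The knockout primary spermatocytes of mouse 613 had been quantified another way, so their depth is unknown. Reads summed over transcripts came to 0.829 per mapped read in that library, against 1.41 to 1.87 in the other primary spermatocyte libraries. The 8 spermatogonial markers summed to 313.5 to 984.5 RPKM in spermatogonia and to 14.7 to 26.5 RPKM in spermatids. The 8 primary spermatocyte markers did not set the first 2 gates apart: they summed to 354.5 to 1970 RPKM (median 975.4) in spermatogonia and to 452.9 to 2375 RPKM (median 949.1) in primary spermatocytes, which bears on every comparison of these gates. Some libraries stood apart from their label. Knockout spermatogonia of mouse 544 held the highest spermatid marker sum of that gate and the lowest spermatogonial sum (313.5 RPKM), with the protamine *Prm1* at 1402 RPKM, against 0.094 to 92.9 RPKM in the other 3 spermatogonia libraries. Spermatids of wildtype mouse 648 and knockout mouse 286 held *Prm1* at 0.579 and 2.14 RPKM, against 930 to 2579 RPKM in the other 3. Spermatogonia of mouse 648 also carried the highest stromal and Leydig cell marker sums of that gate (824.8 and 389 RPKM), and knockout primary spermatocytes of mouse 614 a spermatogonial sum of 301.3 RPKM, the highest of the 6. Summed *Csmd1* was 0.033 to 1.66 RPKM in wildtype and 0.049 to 6.33 RPKM in knockout sorted libraries. The deletion covers the first exon, so a sum over transcripts outside it does not check the genotype. As these are bulk samples, fewer cells of a type and less RNA per cell cannot be told apart.

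The stages differed in which cyclin was most abundant. Levels were compared between genes with the longest coding transcript of each, without mouse 613, because annotated transcripts of a gene share reads in these files and a sum counts such reads repeatedly. In spermatogonia the highest medians were those of *Ccne2* (37.7 RPKM, 22.3 to 61.1, n = 4) and *Ccnb2* (31.5 RPKM, 18.9 to 87.7), followed by *Ccna2* (20.3 RPKM), *Ccnd1* (19.2 RPKM) and *Ccnb1* (17.3 RPKM). *Ccne1* (10.4 RPKM), *Ccna1* (6.55 RPKM), *Ccnd2* (6.15 RPKM) and *Ccnd3* (5.12 RPKM) came last, and every neighbouring pair in that order overlapped in range. From primary spermatocytes on, *Ccnb2* and *Ccna1* ranked first and second in every stage, with overlapping ranges. Their medians were 70.0 and 48.2 RPKM in primary spermatocytes, 70.6 and 61.4 RPKM in secondary spermatocytes and 142.5 and 65.2 RPKM in spermatids (n = 5 each). *Ccne2* came next in primary spermatocytes (40.8 RPKM, 18.6 to 114.9) and lay above the range of *Ccnb1* (12.4 RPKM, up to 16.1). In secondary spermatocytes *Ccnb1* (15.9 RPKM) and *Ccnd3* (14.0 RPKM) came next, and the lowest *Ccna1* library (51.0 RPKM) lay above the highest *Ccnb1* library (45.6 RPKM). In spermatids *Ccnd3* (18.4 RPKM) and *Ccnb1* (16.4 RPKM) followed, with overlapping ranges. *Ccne1* (4.33 RPKM) and *Ccna2* (4.10 RPKM) were next, below the range of *Ccnb1*, and *Ccne2* (1.66 RPKM) overlapped with *Ccna2*. *Ccnd1* (0.576 RPKM) and *Ccnd2* (0.184 RPKM) were last and did not overlap with *Ccne2*.

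**Figure D1:**
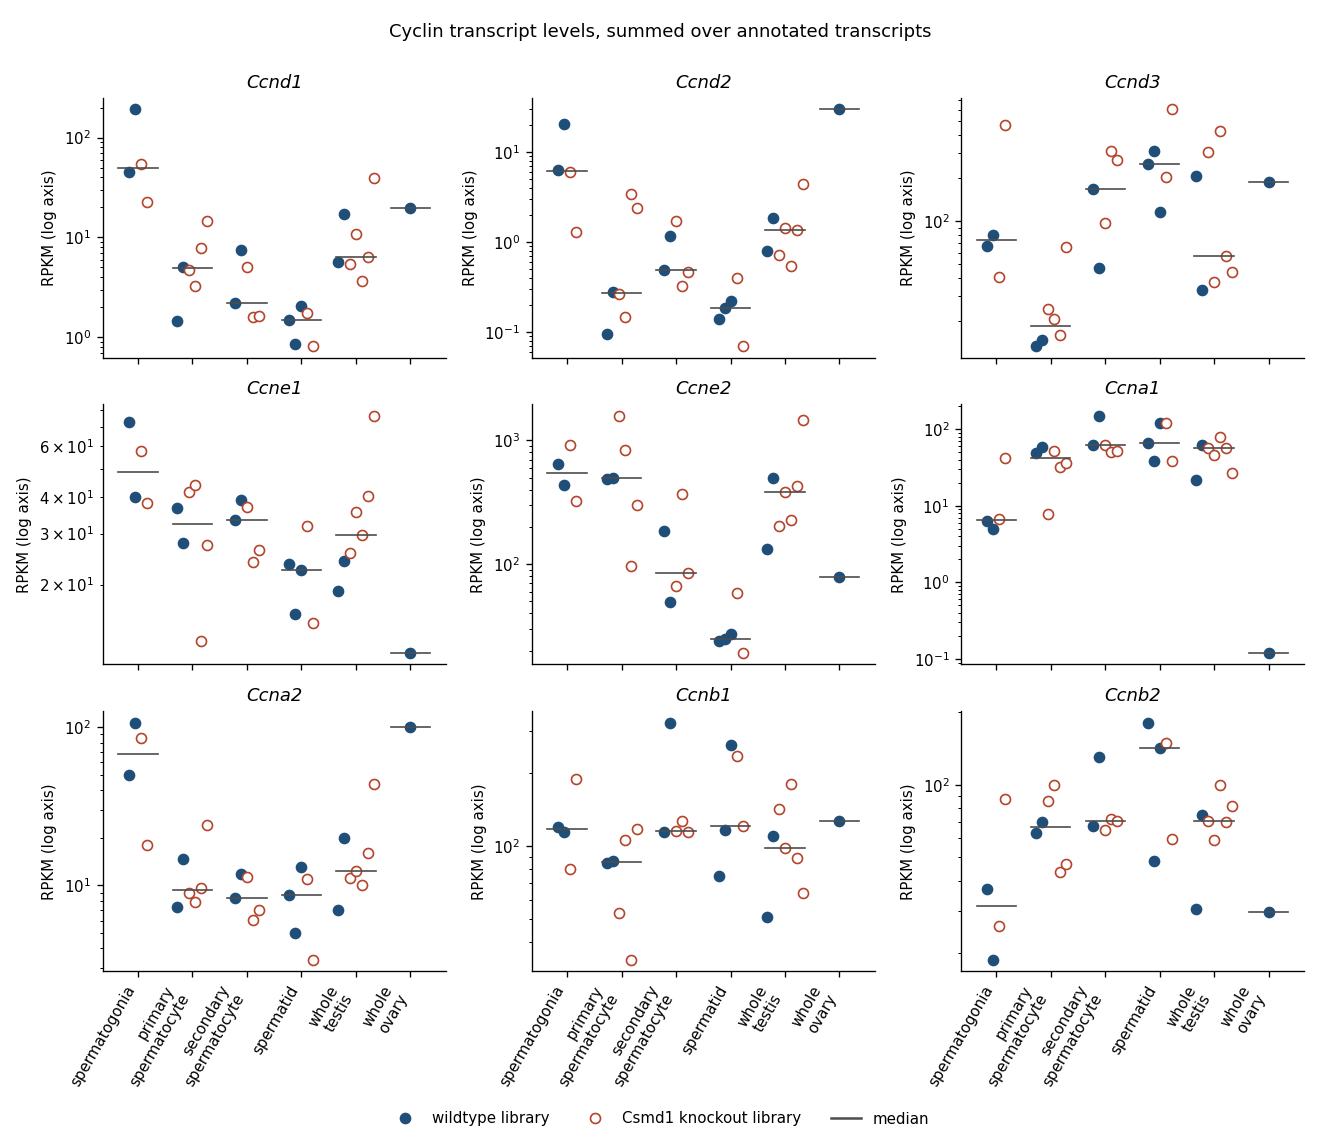
Level of each cyclin (summed RPKM, log axis) in every library, by sorted stage, whole testis and ovary, with filled blue points for wildtype, open red points for knockout and a line at the median. Among sorted stages *Ccnd1*, *Ccnd2* and *Ccna2* have their highest median in spermatogonia, *Ccna1* is at 0.121 RPKM in the ovary, and *Ccnd3* spans 32.8 to 424 RPKM among whole testes.

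Differences between stages were tested with limma on log2(RPKM + 0.1) of the gene sums over all 20 sorted libraries, with genotype as a term and Benjamini-Hochberg adjustment over all 19025 genes tested. All 9 cyclins passed the filter on low values. From spermatogonia to primary spermatocytes 1 cyclin (*Ccna1*) was called higher, where 9.97% of all genes were, and 4 (*Ccnd1*, *Ccnd2*, *Ccnd3*, *Ccna2*) were called lower, where 22.6% were. From primary to secondary spermatocytes *Ccnd3* was called higher (7.43% of all genes) and *Ccne2* lower (1.75%). From secondary spermatocytes to spermatids none of the 9 was called in the limma fit, where 0.00526% of all genes were called higher and 1.23% lower, and *Ccne2* alone had an unadjusted p under 0.05. Between spermatogonia and spermatids *Ccna1* and *Ccnb2* were called higher, where 16.3% of all genes were, and *Ccnd1*, *Ccnd2*, *Ccne1*, *Ccne2* and *Ccna2* lower, where 31.7% were. The median difference of the 9 cyclins was -0.75, 0.26, -0.29 and -1.29 on the log2 scale in these 4 comparisons, beside -0.26, 0.16, -0.32 and -0.38 over all genes.

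The split over all genes depended on scaling. With RPKM as deposited, 1896 genes were called higher and 4307 lower in primary spermatocytes than in spermatogonia, and with quantile-normalized values 3267 and 3031. The same splits were 1414 and 333 against 988 and 973 for secondary against primary spermatocytes, 1 and 234 against 13 and 46 for spermatids against secondary spermatocytes, and 3101 and 6034 against 4490 and 4738 for spermatids against spermatogonia. The call of every cyclin in these comparisons was the same under both scalings. With the mouse as a block, *Ccnd3* was also called higher in spermatids than in spermatogonia and *Ccne2* lower in spermatids than in secondary spermatocytes. In wildtype libraries alone no gene was called between secondary and primary spermatocytes, and in knockout libraries alone none was called between primary spermatocytes and spermatogonia or between spermatids and spermatogonia. Separate mice stand behind the libraries of a stage, and the p-values measure the spread between these libraries.

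**Figure D2:**
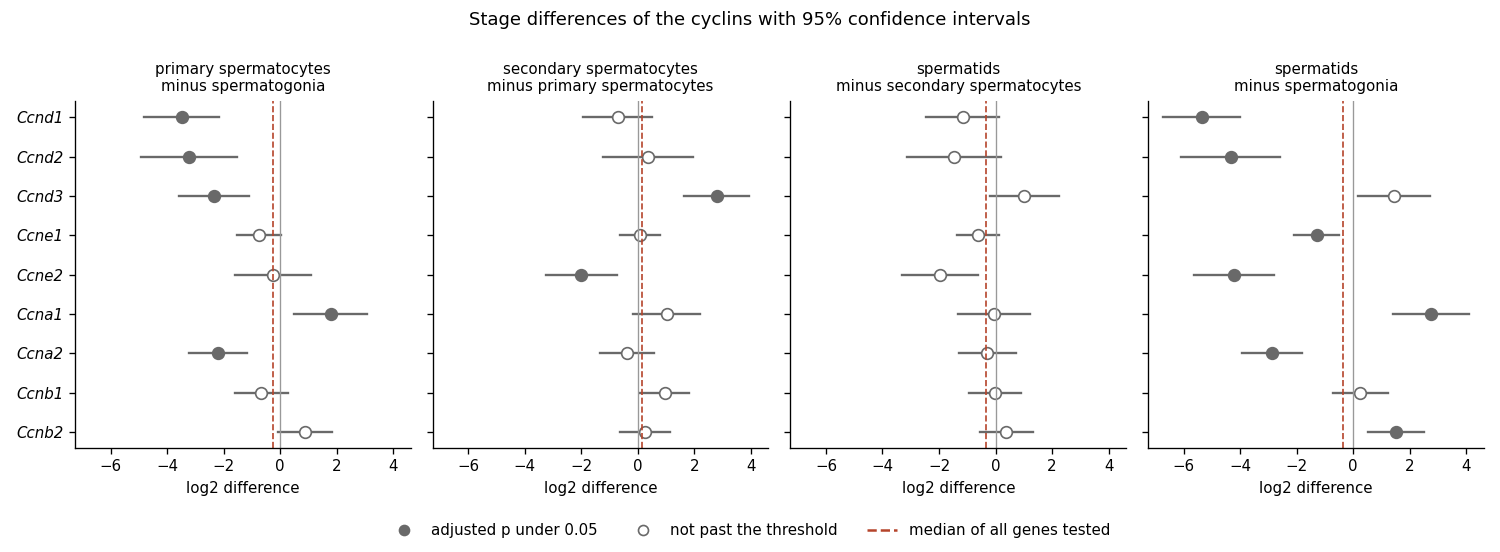
Difference of each cyclin between stages (log2 scale, with 95% confidence intervals from limma) in 4 comparisons. Filled points have an adjusted p under 0.05 and the dashed line is the median of all genes, which lies between -0.38 and 0.16.

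*Ccnd1* and *Ccnd2*, the D cyclins that couple growth signals to G1 in mitotic cells, were high in spermatogonia and low at all later stages. *Ccnd1* (GRCm38 chr7:144929931-144939925, minus strand, 2 transcripts) measured 45.0 and 192 RPKM in wildtype spermatogonia and 54.5 and 22.4 RPKM in knockout spermatogonia. In primary spermatocytes it measured 1.47 to 14.5 RPKM with a median of 4.88 (n = 6), and no library of these stages overlapped. It was 2.20 and 7.54 RPKM in wildtype and 5.10, 1.59 and 1.65 RPKM in knockout secondary spermatocytes, and 0.821 to 2.06 RPKM in the 5 spermatid libraries. The log2 difference was -3.49 ± 0.63 (SE, limma adjusted p = 0.000637) from spermatogonia to primary spermatocytes and -5.36 ± 0.65 (adjusted p = 2.04e-05) from spermatogonia to spermatids. Somatic cell markers were lower in the same step. The 8 stromal markers summed to 30.1 to 824.8 RPKM in spermatogonia and 2.16 to 48.4 RPKM in primary spermatocytes, the 8 Sertoli cell markers to 64.7 to 117.2 and 4.96 to 31.3 RPKM, and the 8 macrophage markers to 13.5 to 83.2 and 2.44 to 9.23 RPKM. The highest *Ccnd1* value, in wildtype mouse 648, was from the spermatogonia library with the highest stromal and Leydig cell sums. The part of these cells in the levels of *Ccnd1* and *Ccnd2* was not tested.

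*Ccnd2* (chr6:127125162-127152193, minus strand, 1 transcript) measured 6.29 and 20.4 RPKM in wildtype and 6.00 and 1.30 RPKM in knockout spermatogonia, the last in mouse 544. Primary spermatocytes ranged from 0.095 to 3.38 RPKM (median 0.276), and the 2 highest of them, mice 613 and 614, lay above the spermatogonia of mouse 544. It measured 0.324 to 1.70 RPKM in secondary spermatocytes and 0.071 to 0.399 RPKM in spermatids. The log2 difference of *Ccnd2* was -3.22 ± 0.82 (limma adjusted p = 0.00536) from spermatogonia to primary spermatocytes and -4.34 ± 0.84 (adjusted p = 0.000469) between spermatogonia and spermatids. Without spermatogonia 544 and mouse 613 the first of these was -4.43. It missed the threshold without mouse 178 (-2.77, adjusted p = 0.056) and without mouse 648 (-2.53, adjusted p = 0.070). The only transcript of *Ccnd2* shares exon bases with the antisense gene *Gm43126*, and a transcript of *Ccnd1* does so with *LTO1*. Whether reads were counted by strand was not stated, so the partners cannot be told apart.

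*Ccnd3*, the remaining D cyclin, was lower in primary spermatocytes than in spermatogonia and was higher again in secondary spermatocytes. It measured 67.2 and 79.6 RPKM in wildtype spermatogonia and 40.9 and 471 RPKM in knockout spermatogonia, the highest being mouse 544 with its spermatid transcripts. Primary spermatocytes ranged from 13.5 to 66.5 RPKM with a median of 18.5, where the highest library was mouse 614. Secondary spermatocytes measured 167.5 and 47.2 RPKM in wildtype mice 178 and 648, and 97.2, 307 and 267 RPKM in knockout mice 286, 544 and 550. Only the lowest of these, mouse 648, lay within the range of primary spermatocytes. The log2 difference was -2.36 ± 0.60 (adjusted p = 0.00527) from spermatogonia to primary spermatocytes, and -1.57 ± 0.57 (adjusted p = 0.0301) without spermatogonia 544 and mouse 613. From primary to secondary spermatocytes it was 2.78 ± 0.56 (adjusted p = 0.00647). Without mouse 178 that became 2.59 (adjusted p = 0.058) and without mouse 550 it became 2.58 (adjusted p = 0.052).

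Spermatids held *Ccnd3* at 249, 307 and 116 RPKM in wildtype mice 178, 351 and 648 and at 203.5 and 603 RPKM in knockout mice 286 and 544. All 5 lay above the 3 spermatogonia libraries other than mouse 544. The difference between spermatids and spermatogonia was 1.44 ± 0.62 on the log2 scale (adjusted p = 0.0598), and 2.03 ± 0.56 (adjusted p = 0.00439) without spermatogonia 544 and mouse 613. With the mouse as a block it was 1.37 ± 0.49 (adjusted p = 0.021).

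The *Ccnd3* gene (chr17:47505051-47599691, plus strand) has 21 annotated transcripts and RefSeq gives it 2 start sites, so the windows from 250 bases before to 20 bases after each start (GRCm38.p6, 5′ to 3′) are shown here, the first upstream and the second downstream within the gene. Capitals mark matches on either strand to 5 motifs: CCAAT (bound by NF-Y), TTTGAA (the cell cycle homology element), TTTNNCGC (E2F), CAACNG (MYB) and TGACGT (the CRE of CREB and CREM). TTTNNCGC matched no window.
Ccnd3 first start, chr17:47504801-47505070 (+): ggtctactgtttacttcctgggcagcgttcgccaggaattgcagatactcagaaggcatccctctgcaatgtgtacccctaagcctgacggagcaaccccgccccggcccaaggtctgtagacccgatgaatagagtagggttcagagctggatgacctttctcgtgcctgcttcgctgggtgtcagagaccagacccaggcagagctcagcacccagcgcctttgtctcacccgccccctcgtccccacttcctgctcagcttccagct
Ccnd3 second start, chr17:47593217-47593486 (+): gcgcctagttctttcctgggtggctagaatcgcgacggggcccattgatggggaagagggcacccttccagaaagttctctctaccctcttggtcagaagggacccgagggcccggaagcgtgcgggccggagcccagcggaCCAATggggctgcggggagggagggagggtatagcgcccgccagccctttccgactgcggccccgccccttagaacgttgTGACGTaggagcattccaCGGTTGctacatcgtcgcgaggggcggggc
The first window held none of the motifs. The second held CCAAT 108 bases before the start, TGACGT 28 bases before it and a CAACNG match on the minus strand 10 bases before it. Among 32851 promoters of this length in RefSeq, 35.4% held CCAAT, 31.8% CAACNG, 16.8% TTTGAA, 7.1% TGACGT and 4.6% TTTNNCGC. A match is a description of the letters only.

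The transcripts of *Ccnd3* were read against those starts, without mouse 613. The 4 transcripts that lie wholly upstream of that base had medians per library of 0 to 0.0555 RPKM in spermatids and 0.173 to 0.55 RPKM in spermatogonia. The 8 transcripts that start at or after it had medians of 8.12 to 45.6 RPKM in spermatids, 3.22 to 21.6 RPKM in secondary spermatocytes, 0.441 to 3.70 RPKM in primary spermatocytes and 2.04 to 31.3 RPKM in spermatogonia, so the downstream medians were above the upstream ones in both gates. The ovary showed 1.79 RPKM upstream and 11.5 RPKM downstream. The remaining 9 transcripts begin before that base and end at or after it. Transcripts of these sets can share reads, so the values do not show which start the reads came from. Several *Ccnd3* transcripts share exon bases with *Bysl*, an antisense neighbour.

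Among the E cyclins, *Ccne2* was the more abundant partner of CDK2 in spermatogonia and primary spermatocytes and fell afterwards. *Ccne2* (chr4:11191351-11204779, plus strand, 7 transcripts) measured 649.6 and 434 RPKM in wildtype and 913 and 324 RPKM in knockout spermatogonia. Primary spermatocytes ranged from 96.7 to 1568 RPKM (median 494), the widest range of any cyclin at that stage in RPKM. The lowest was mouse 613, quantified another way, and the next lowest knockout library held 301.7 RPKM. Secondary spermatocytes measured 187 and 49.0 RPKM in wildtype and 66.4, 367 and 85.0 RPKM in knockout mice. Spermatids ranged from 19.3 to 59.0 RPKM, and all 5 lay below every spermatogonia and primary spermatocyte library. The log2 difference was -0.26 ± 0.65 (adjusted p = 0.806) into primary spermatocytes, -2.00 ± 0.61 (adjusted p = 0.0444) into secondary spermatocytes and -1.96 ± 0.64 (adjusted p = 0.11) into spermatids. Between spermatogonia and spermatids it was -4.22 ± 0.67 (adjusted p = 0.000102).

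The step of *Ccne2* into secondary spermatocytes was near the threshold: it lost the call in 20 of 38 alternatives, with adjusted p between 0.0027 and 0.365, and the lowest was without spermatogonia 544 and mouse 613 (-2.46). The step into spermatids gained the call with the mouse as a block (-1.97 ± 0.58, adjusted p = 0.0415). *Ccne2* overlaps the antisense gene *Ints8*.

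*Ccne1* (chr7:38097984-38107534, minus strand, 5 transcripts) changed least among the cyclins that fell. It measured 72.9 and 40.1 RPKM in wildtype and 58.1 and 38.4 RPKM in knockout spermatogonia. In primary spermatocytes it was 12.8 to 44.1 RPKM (median 32.3). The lowest of these was mouse 613, and the next lowest knockout library held 27.4 RPKM. It was 24.0 to 39.2 RPKM in secondary spermatocytes and 14.8 to 31.9 RPKM in spermatids. No spermatid library reached the range of spermatogonia. The log2 difference between spermatogonia and spermatids was -1.29 ± 0.38 (adjusted p = 0.00913), and it missed the threshold without mouse 178 (-1.14, adjusted p = 0.073). No step between neighbouring stages passed the test (adjusted p from 0.128 to 0.901).

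The A cyclins went opposite ways. *Ccna2*, the A cyclin of dividing somatic cells (chr3:36564865-36572150, minus strand, 4 transcripts), measured 50.0 and 106 RPKM in wildtype and 84.9 and 17.9 RPKM in knockout spermatogonia, the lowest in mouse 544. Primary spermatocytes ranged from 7.25 to 24.2 RPKM (median 9.32), and the highest, mouse 614, was the one library above spermatogonia 544. It was 6.05 to 11.7 RPKM in secondary spermatocytes and 3.40 to 13.0 RPKM in spermatids. The log2 difference of *Ccna2* was -2.21 ± 0.49 (limma adjusted p = 0.00228) from spermatogonia to primary spermatocytes and -2.88 ± 0.51 (adjusted p = 0.000205) between spermatogonia and spermatids. Transcripts Ccna2-201 and Ccna2-204 share exon bases with the antisense gene *Exosc9*. With the transcripts that overlap no other gene the first difference was -3.66 ± 0.64 (adjusted p = 0.000605), and with the longest coding transcript, which overlaps, it was -1.27 ± 0.44 (adjusted p = 0.0252).

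*Ccna1* (chr3:55045469-55055501, minus strand, 1 transcript, no overlap with another gene) measured 6.40 and 5.04 RPKM in wildtype spermatogonia and 6.71 RPKM in knockout spermatogonia of mouse 286, but 42.4 RPKM in those of mouse 544. Primary spermatocytes ranged from 7.92 to 59.1 RPKM with a median of 42.4, the lowest being mouse 544. It measured 61.4 and 147 RPKM in wildtype and 61.8, 51.0 and 51.7 RPKM in knockout secondary spermatocytes. Spermatids held 65.2, 38.7 and 119.6 RPKM in wildtype and 119.5 and 38.1 RPKM in knockout mice. Spermatogonia other than mouse 544 lay below every library of the later stages. The log2 difference of *Ccna1* was 1.79 ± 0.62 (adjusted p = 0.0315) into primary spermatocytes, 1.01 ± 0.58 (adjusted p = 0.272) into secondary spermatocytes and 2.75 ± 0.64 (adjusted p = 0.00181) between spermatogonia and spermatids. Without spermatogonia 544 and mouse 613 the first of these was 2.60 ± 0.56. It lost the call in 12 of 38 alternatives, among them leaving out mouse 648 (1.26, adjusted p = 0.219).

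The *Ccna1* start window is shown because this gene was called higher in primary spermatocytes than in spermatogonia, with the same motifs in capitals.
Ccna1, chr3:55055036-55055305 (-): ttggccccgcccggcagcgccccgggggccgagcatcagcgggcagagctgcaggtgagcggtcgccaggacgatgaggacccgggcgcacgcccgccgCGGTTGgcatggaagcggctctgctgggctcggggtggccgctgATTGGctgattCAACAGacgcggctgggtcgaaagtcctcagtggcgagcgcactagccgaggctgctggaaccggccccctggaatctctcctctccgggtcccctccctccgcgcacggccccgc
It held CCAAT on the minus strand 107 bases before the start and CAACNG at 151 bases before it on the minus strand and at 96 bases before it on the plus strand. RefSeq entries used here gave no window for *Ccna2*, *Ccnd1*, *Ccnd2* and *Ccne2*. The *Ccne1* window (chr7:38107471-38107740, minus strand) held none of the motifs.

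The B cyclins, which activate CDK1 at division, stayed abundant in all sorted stages. *Ccnb1* (chr13:100778650-100786570, minus strand, 7 transcripts) measured 119.7 and 114.6 RPKM in wildtype and 80.5 and 189 RPKM in knockout spermatogonia. In primary spermatocytes it was 33.9 to 117.5 RPKM (median 86.0). The lowest of these was mouse 613, and the next lowest knockout library held 52.7 RPKM. Secondary spermatocytes measured 114 and 322 RPKM in wildtype and 116, 127 and 114 RPKM in knockout mice. Spermatids held 74.9, 117 and 261 RPKM in wildtype and 235 and 121 RPKM in knockout mice. Neighbouring stages overlapped in range, and the highest value, 322 RPKM, was in secondary spermatocytes of mouse 648. No difference of *Ccnb1* passed the test, and between spermatogonia and spermatids it was 0.26 (95% confidence interval -0.71 to 1.23, adjusted p = 0.677).

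*Ccnb2* (chr9:70407692-70421547, minus strand, 1 transcript, no overlap) measured 37.0 and 18.9 RPKM in wildtype spermatogonia and 25.9 and 87.7 RPKM in knockout spermatogonia, the highest again in mouse 544. It ranged from 43.4 (mouse 613) to 100.2 RPKM in primary spermatocytes (median 66.7). No primary spermatocyte library was as low as the spermatogonia of mice 178, 286 and 648. Secondary spermatocytes measured 65.1 to 130.0 RPKM, and spermatids 180.2, 48.2 and 142.5 RPKM in wildtype and 148.9 and 59.8 RPKM in knockout mice. The log2 difference of *Ccnb2* was 0.88 ± 0.46 (adjusted p = 0.156) into primary spermatocytes and 1.52 ± 0.48 (adjusted p = 0.0129) between spermatogonia and spermatids. Without spermatogonia 544 and mouse 613 the first of these was 1.47 ± 0.44 (adjusted p = 0.00970) and passed. The second missed the threshold when wildtype spermatogonia 648 (1.18, adjusted p = 0.074), or all libraries of mouse 178 (1.35, adjusted p = 0.084), 286 (1.23, adjusted p = 0.093) or 648 (1.11, adjusted p = 0.117), were left out.

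The start windows of the B cyclins are shown side by side because both genes carry repeated CCAAT matches.
Ccnb1, chr13:100786467-100786736 (-): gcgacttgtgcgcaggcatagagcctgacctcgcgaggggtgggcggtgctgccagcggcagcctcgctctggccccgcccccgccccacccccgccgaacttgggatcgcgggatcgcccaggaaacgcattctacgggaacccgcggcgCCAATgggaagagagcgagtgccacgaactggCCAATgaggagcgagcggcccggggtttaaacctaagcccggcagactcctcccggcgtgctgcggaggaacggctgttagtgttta
Ccnb2, chr9:70421535-70421804 (-): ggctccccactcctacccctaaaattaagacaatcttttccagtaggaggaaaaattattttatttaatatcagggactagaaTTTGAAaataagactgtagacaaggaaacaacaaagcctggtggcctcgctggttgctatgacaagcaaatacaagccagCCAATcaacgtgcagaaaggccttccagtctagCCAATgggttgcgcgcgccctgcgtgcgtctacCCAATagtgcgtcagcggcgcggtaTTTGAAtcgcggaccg
*Ccnb1* held CCAAT at 99 and 67 bases before its start. *Ccnb2* held it at 87, 54 and 21 bases before, and TTTGAA at 167 bases before and 4 bases after the start.

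A factor common to all genes of a library cancels in the ratio of paralogs. The 0.1 RPKM added to each value limits this for low genes, such as *Ccnd2* in spermatids (0.071 to 0.399 RPKM). Quantile normalization was not applied to the ratios. On the gene sums, the mean log2 ratio of *Ccna1* to *Ccna2* was -2.43 ± 2.51 (SD, n = 4) in spermatogonia, 1.60 ± 1.17 (n = 6) in primary spermatocytes, 2.97 ± 0.43 (n = 5) in secondary spermatocytes and 3.18 ± 0.26 (n = 5) in spermatids. The first step was 4.03 (exact permutation test, two-sided, p = 0.029, adjusted p = 0.086 over 12 tests) and the second 1.38 (exact permutation p = 0.022, adjusted p = 0.086). The ratio of *Ccnb2* to *Ccnb1* moved from -1.76 to -0.18 into primary spermatocytes (exact permutation p = 0.019, adjusted p = 0.086), and that of *Ccne2* to *Ccne1* from 3.95 to 1.85 into secondary spermatocytes (exact permutation p = 0.022, adjusted p = 0.086). The sign of the *Ccnb2* to *Ccnb1* ratio depended on the measure, since 7 transcripts of *Ccnb1* and 1 of *Ccnb2* were summed. With the longest coding transcript and without mouse 613 its medians were 1.06 in spermatogonia and 2.49 in primary spermatocytes. *Ccnd3* to *Ccnd2* had means of 4.12, 5.14, 7.50 and 9.81 over the 4 stages. None of the 12 steps passed adjustment by the exact permutation test, and 4 had an unadjusted p under 0.05. With these numbers of libraries no single step could pass alone. The smallest p the test can give for a step is above 0.05 once adjusted over 12 tests. The test does not take the mouse into account, although neighbouring stages share mice. In mice with both stages, *Ccnb2* to *Ccnb1* was higher in primary spermatocytes than in spermatogonia in 3 of 3, and *Ccna1* to *Ccna2* in 2 of 3, mouse 544 being the exception. *Ccna1* to *Ccna2* was higher in secondary than in primary spermatocytes in 4 of 4. With the longest coding transcript and without mouse 613, the *Ccna1* to *Ccna2* medians were -1.59, 2.44, 3.61 and 3.99 in stage order, against -7.08 in the ovary.

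**Figure D3:**
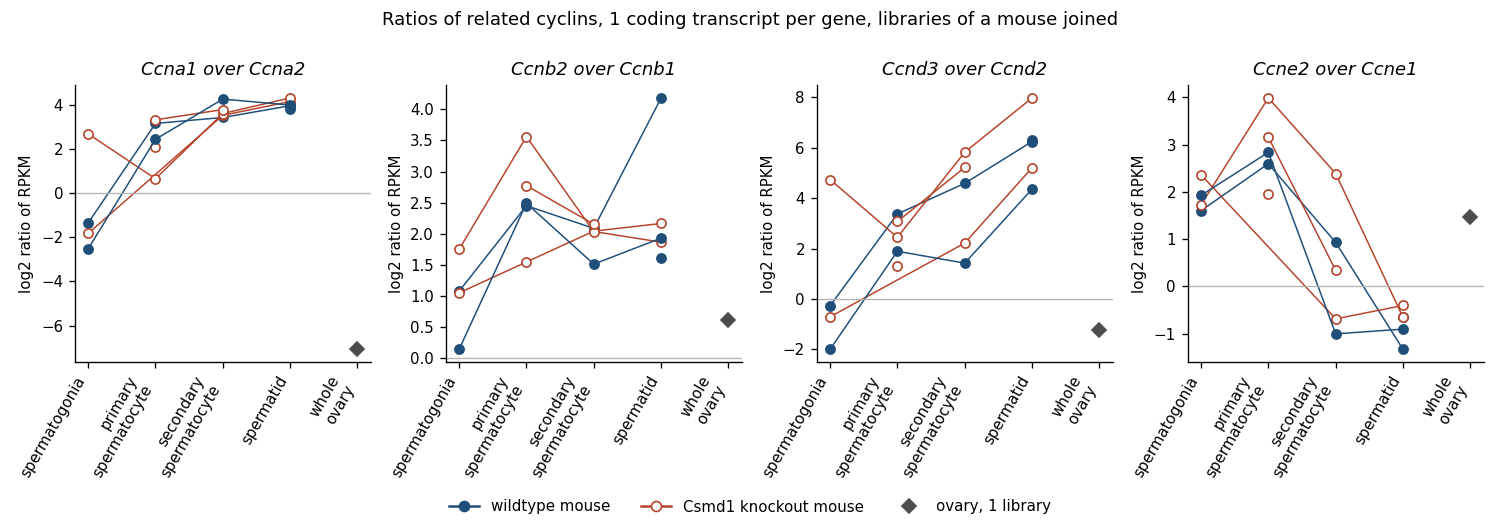
Log2 ratio of paralogs, from the longest coding transcript of each gene, in spermatogonia, primary spermatocytes, secondary spermatocytes and spermatids, with lines joining libraries of the same mouse, a diamond for the ovary, and mouse 613 left out. The *Ccna1* to *Ccna2* median goes from -1.59 to 3.99, and that of *Ccnd3* to *Ccnd2* from -0.49 to 6.25.

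*Ccnd3* differed widely among whole testes. It measured 207 and 32.8 RPKM in wildtype mice 178 and 648, and 305, 37.5, 424, 56.8 and 44.3 RPKM in knockout mice 214, 269, 273, 286 and 308. The 3 testes above 200 RPKM (mice 178, 214 and 273) were the ones with *Prm1* at 603, 1152 and 1922 RPKM, and the other 4 held *Prm1* at 0.439 to 1.16 RPKM. *Ccne2* went the other way, at 134, 205 and 227 RPKM in those 3 testes and 386 to 1457 RPKM in the other 4. *Ccnb1* (50.9 to 179.7 RPKM) and *Ccna1* (21.8 to 79.0 RPKM) overlapped between these testes. Among spermatid libraries, *Ccna1* was 119.6 and 119.5 RPKM where *Prm1* was near 0 (mice 648 and 286) and 38.1 to 65.2 RPKM in the other 3, and *Ccnb1* was 261 and 235 RPKM against 74.9 to 121 RPKM. The part of the stage of the spermatids, or of the age of the mice, in these values was not tested.

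**Figure D4:**
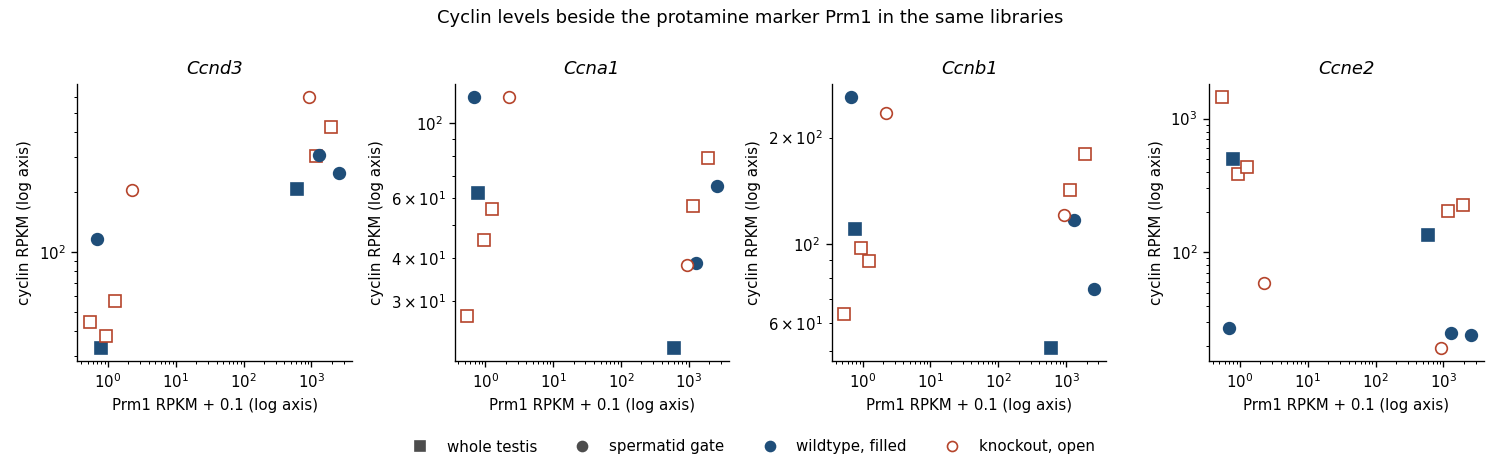
Cyclin level (RPKM, log axis) against *Prm1* (RPKM + 0.1, log axis) in whole testes (squares) and the spermatid gate (circles) for *Ccnd3*, *Ccna1*, *Ccnb1* and *Ccne2*. The 3 testes with *Prm1* at 603 RPKM or more have *Ccnd3* above 200 RPKM, and the other 4 lie between 32.8 and 56.8 RPKM.

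The testis of knockout mouse 308 had the highest level of *Ccnd1* (39.2 RPKM, others 3.70 to 17.0), *Ccnd2* (4.37 RPKM, others 0.543 to 1.84), *Ccne1* (76.3 RPKM), *Ccne2* (1457 RPKM) and *Ccna2* (43.7 RPKM, others 6.96 to 19.9). That library also held the highest spermatogonial marker sum (429.4 RPKM) and Sertoli cell marker sum (453.4 RPKM) of the 7 testes, and their part in the cyclin levels was not tested.

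The ovary differed from testis in the same paralogs. It held *Ccna1* at 0.121 RPKM, against 21.8 to 79.0 RPKM in whole testes, and *Ccnd2*, the D cyclin of granulosa cell proliferation, at 29.5 RPKM against 0.543 to 4.37 RPKM. *Ccna2* measured 100.9 RPKM, above the highest testis. *Ccnd1* (19.7 RPKM), *Ccnd3* (189 RPKM) and *Ccnb1* (126.6 RPKM) lay within the range of testes. For *Ccnd1* only the testis of mouse 308 (39.2 RPKM) was above the ovary. *Ccne1* (11.6 RPKM) and *Ccne2* (78.1 RPKM) lay below the range of testes. *Ccnb2* was 29.8 RPKM, just below the lowest testis (30.5 RPKM). There is 1 ovary, so these differences have no replicate check.

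No cyclin differed between genotypes past the threshold. In sorted cells, with stage as a term, 0.0105% of all genes (2 of 19025) were called, and 1972 had an unadjusted p under 0.05. *Ccnd3* had the largest difference among the cyclins, 0.95 ± 0.42 higher in knockout on the log2 scale (95% confidence interval 0.07 to 1.82, unadjusted p = 0.0354, limma adjusted p = 0.464), and the other 8 differed by -0.35 to 0.17. The interval of *Ccna2* ran from -1.07 to 0.37 and that of *Ccnd2* from -1.15 to 1.26. This fit took the 20 sorted libraries of 8 mice (3 wildtype, 5 knockout) as independent, although genotype differs only between mice. Residuals of the same mouse tended to be alike, with a block correlation of 0.361. These intervals are therefore too narrow and the unadjusted p-values too small. Without mouse 286 the difference of *Ccnd3* was 1.57 (adjusted p = 0.046), and 384 genes were called there. In whole testes 0% of 18765 genes were called by limma, with 2327 at an unadjusted p under 0.05, and the cyclins had adjusted p from 0.529 to 0.979. The interval of *Ccnd3* in whole testes ran from -2.14 to 2.82. The interaction of stage and genotype called 0% of genes (483 at an unadjusted p under 0.05), and no cyclin had an unadjusted p under 0.159.

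Other cell cycle genes, in lists fixed by name, were tested in the same fits. In primary spermatocytes against spermatogonia the shares over all genes were 9.97% higher and 22.6% lower, beside which the counts below are given. In primary spermatocytes against spermatogonia, 8 of 14 S phase and replication genes were called lower and 0 higher (list median -2.01), among them the helicase subunit *Mcm2* (-3.98 ± 0.74) and thymidylate synthase *Tyms* (-2.96 ± 0.58). Of 13 retinoblastoma and E2F genes 7 were called lower and 0 higher (median -1.76). These 7 were *E2f5* (-2.82 ± 0.38), *E2f3* (-3.86 ± 0.64), *E2f2* (-3.16 ± 0.57), *E2f1* (-2.75 ± 0.63), *Tfdp2* (-2.35 ± 0.48), *Rbl2* (-1.76 ± 0.55) and *Rb1* (-1.80 ± 0.59). Of 7 CDKs with a value 1 was called lower, *Cdk5* (-2.35), whereas *Cdk1* differed by 0.49 and *Cdk2* by 0.64 without passing. The list of CDK inhibitors, which also holds the CDK subunits *Cks1b* and *Cks2*, had 3 of 9 called higher and 4 lower. The 3 higher were the INK4 inhibitors *Cdkn2c* (1.91 ± 0.48) and *Cdkn2d* (1.92 ± 0.60), and *Cks2* (1.22 ± 0.44). The 4 lower were the inhibitors *Cdkn1c* (-2.24 ± 0.55), *Cdkn1b* (-3.37 ± 0.86) and *Cdkn1a* (-1.91 ± 0.49), and *Cks1b* (-2.12 ± 0.62). Of 11 genes of the CDK phosphorylation switch 3 were called higher and 3 lower. Those higher were the inhibitory kinase *Pkmyt1* (1.86 ± 0.38), *Aurka* (1.44 ± 0.51) and *Aurkc* (1.92 ± 0.73). Those lower were the activating phosphatase *Cdc25c* (-1.81 ± 0.38), *Cdc25b* (-3.16 ± 0.81) and the kinase *Wee1* (-0.98 ± 0.33).

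In the same comparison, 3 of 22 genes of the anaphase-promoting complex and checkpoint were called higher and 4 lower, the inhibitor *Fbxo43* rising by 2.75 ± 0.45. Of 11 meiotic regulators with a value 4 rose and 3 fell, with the CDK1 chaperone *Hspa2* up (2.29 ± 0.49) and *Stra8*, the retinoic acid target of meiotic entry, down (-4.06 ± 0.88). Of 18 other cyclins 2 rose and 8 fell, such as *Ccng1* (-3.00 ± 0.55) and *Ccng2* (-2.75 ± 0.53). The counts of CDKs, of checkpoint genes, and of genes called lower among meiotic regulators and the phosphorylation switch lay near or under the shares over all genes. With quantile-normalized values the other cyclins called lower were 5 of 18, the CDKs were 1 higher and 2 lower of 7, the inhibitor list 3 and 3 of 9, the phosphorylation switch 3 and 2 of 11, the retinoblastoma and E2F genes 1 and 7 of 13, and the checkpoint genes 4 and 3 of 22. That scaling called more of all genes higher and fewer lower, as the splits given earlier show. The shares of 9.97% and 22.6% therefore do not apply to these counts.

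Into secondary spermatocytes at most 2 genes of any list passed in one direction, and no CDK or S phase gene did with RPKM as deposited. With quantile-normalized values, where more of all genes were called lower, 3 S phase genes (*Gmnn*, *Mcm3* and *Mcm5*) and 3 checkpoint genes were called lower. *Rbl2*, the retinoblastoma relative p130, rose by 2.88 ± 0.52 (adjusted p = 0.0035), the cohesin *Rec8* by 3.07 ± 0.54 (adjusted p = 0.0032) and *Cdc25c* by 1.75 ± 0.35 (adjusted p = 0.0067). The checkpoint gene *Mad2l1* fell by 2.10 (SE 0.60, adjusted p = 0.034) and the E2F partner *Tfdp1* fell by 1.78 (SE 0.45, adjusted p = 0.020). Into spermatids 4 list genes were called lower, *Fbxo43*, *Cks2*, *Cdk2* and *Gmnn*, and none of them was called with quantile-normalized values.

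Between spermatogonia and spermatids 16.3% of all genes were called higher and 31.7% lower. Here 9 of 14 S phase genes were called lower and 0 higher (median -3.19), with the licensing factor *Cdt1* at -4.88 ± 0.59 and *Mcm3* at -4.77 ± 0.58. Of 7 CDKs 6 were called lower, 3 with quantile-normalized values, led by *Cdk4* (-3.37 ± 0.63), the D cyclin partner, and *Cdk2* (-2.27 ± 0.49). *Cdk1*, the B cyclin partner, differed by -1.36 ± 0.49 (adjusted p = 0.028), and by -1.14 (adjusted p = 0.0528) with quantile-normalized values, where it was not called. Of 22 anaphase-promoting complex and checkpoint genes 10 were called lower and 1 higher, and the inhibitor *Fbxo5* fell by 4.47 on the log2 scale. Retinoblastoma and E2F genes had 8 of 13 lower and 1 higher, *Rbl2* (2.29 ± 0.57), CDK inhibitors 5 of 9 lower and 1 higher, the phosphorylation switch 2 of 11 each way, meiotic regulators 3 of 11 lower and 2 higher, and other cyclins 8 of 18 lower and 1 higher. The counts of meiotic regulators and of the phosphorylation switch lay near or under the shares over all genes. With quantile-normalized values 11 of 14 S phase genes, 8 of 22 checkpoint genes, 7 of 13 retinoblastoma and E2F genes, 4 of 9 of the inhibitor list and 6 of 18 other cyclins were called lower, and 4 of 11 genes of the phosphorylation switch higher. Here too that scaling called more of all genes higher and fewer lower, so the shares of 16.3% and 31.7% do not apply to these counts. No list gene was called between genotypes.

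**Figure D5:**
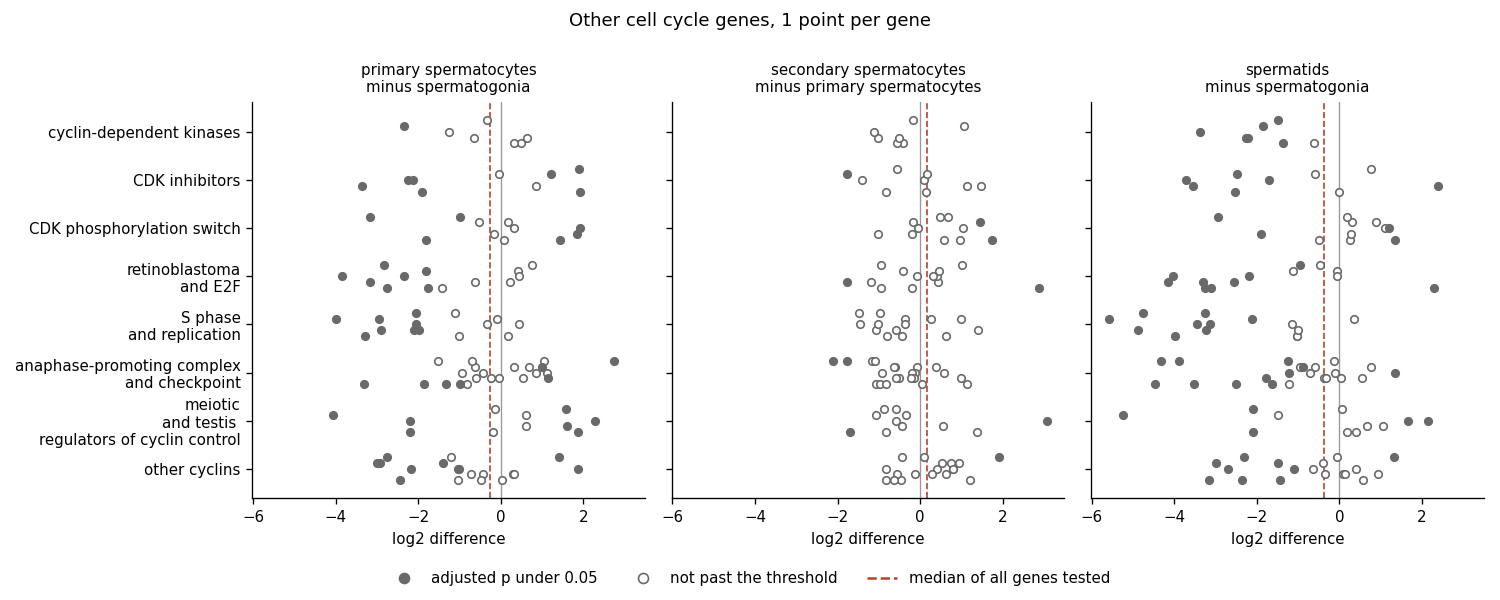
Log2 difference of each gene of the other cell cycle lists in 3 comparisons of sorted stages (primary spermatocytes minus spermatogonia, secondary minus primary spermatocytes, spermatids minus spermatogonia). The S phase and replication list lies lowest in the first and the last, with medians of -2.01 and -3.19.

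The genes most like each cyclin were taken by Pearson's r of log2 values over the 20 sorted libraries, among 13279 genes with a mean of at least 1 RPKM. The libraries share mice and stages, so r is a description. *Ccnd1* was nearest to *Bahcc1* (r = 0.976), *Glis2* (0.973) and *Fn1* (0.970), the gene of fibronectin. *Ccnd2* was nearest to *Prr12* (0.969), *Mex3a* (0.965) and *Trim71* (0.965), and *Ccna2* to *D330045A20Rik* (0.966), *Ppat* (0.955) and *Sall4* (0.952), a spermatogonial marker. *Ccnd3* was nearest to *Plekha6* (0.976), *Bbx* (0.972) and *Rec8* (0.969). *Ccna1* was nearest to the tektin *Tekt3* (0.971), *Prss21* (0.969) and *Toporsl* (0.968), and *Ccnb2* to *Ppp3cc* (0.922), *Spag8* (0.905) and *Txnrd3* (0.898). *Ccne2* was nearest to *Tm2d3* (0.970) and *Nsfl1c* (0.964), *Ccne1* to *Rbbp5* (0.908), *Birc6* (0.901) and *Nkapd1* (0.890), and *Ccnb1* to *Lin37* (0.888), *Gm3543* (0.873) and *Tpst1* (0.858). Among the cyclins themselves, *Ccnd1* and *Ccna2* had r = 0.938 over the same 20 libraries, *Ccnd1* and *Ccnd2* r = 0.920, and *Ccna1* and *Ccnb2* r = 0.779.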

How the data were processed

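RNA-seq of mouse testis, ovary and sorted germ cells was used. TopHat2 was used by the authors to align read pairs against Ensembl mouse transcripts, and the deposited values are RPKM per transcript. Their tests added PEER adjustment, quantile normalization and PoissonSeq, none of which was seen in the deposited values of 27 libraries, where 93.1 to 94.6% of low values fell within 0.06 of a whole read (12% by chance, 14.1% in mouse 613), which also gave the depths of 23796181 to 61632239 reads. Read counts were not tested. Transcripts were assigned to genes with GENCODE M21 on GRCm38 (90339 of 94480, 95.6%), 13982 without a value in some library were left out, and 78640 were summed to 27978 genes. Groups, mice and stages came from the labels.

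limma 3.58.1 (R 4.3.3, lmFit, eBayes with trend) was run on log2(RPKM + 0.1), so a difference of low genes is understated, for genes with a mean of at least 0.1 RPKM, with calls at an adjusted p under 0.05 (Benjamini-Hochberg over all genes tested). Stage and genotype were terms for sorted cells, and whole testes were fitted alone. Paralog ratios used exact permutation tests. Scripts were tested on simulated data. Tables, overlaps and figures used Python 3.11.15, numpy 2.4.6, pandas 2.3.3, scipy 1.17.1, bedtools 2.31.1 and matplotlib 3.10.9. Alternatives were scaling, pseudocount, filter, coding transcripts, mouse block, quantification group, single genotypes and leaving out libraries or mice, plus 3 chosen after seeing the data. Quantification groups are 4 sets of libraries that share the same transcripts without a value.

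The named genes are the 9 cyclins, *Csmd1*, cell cycle lists (of which *Cdk3*, *Meiosin*, *Speedya* and *Speedye4* were not measured) and the 3 genes nearest to each cyclin, of which 1 is not reported here. The members and lists were chosen with earlier results of these data known. The mouse number of the labels pairs libraries of the same animal. As a check, residuals were correlated between libraries: the median was 0.48 within a mouse (22 pairs, -0.15 to 0.70) and -0.05 between mice (151 pairs), and the block took a correlation of 0.361. Promoter windows and motif shares came from RefSeq (GRCm38.p6).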

Additional observations from a re-analysis of the deposited data

Results flagged for a closer look

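Of the 18 combinations of a cyclin and a group of 4 or more libraries of one kind that were tested, 6 held a library far from the others. Chance gives about 1 in 20 per combination. The combinations reuse the same libraries, so they are not independent, and all 6 come from mouse 308 or mouse 614. In whole testes of knockout mice, mouse 308 was far above the other 4 for *Ccnd1* (39.2 RPKM), *Ccnd2* (4.365 RPKM), *Ccne2* (1457 RPKM) and *Ccna2* (43.75 RPKM). That testis also held the highest spermatogonial (429.4 RPKM) and Sertoli cell (453.4 RPKM) marker sums of the 7 testes.

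In knockout primary spermatocytes, mouse 614 was far above the other 3, among them mouse 613, quantified another way, for *Ccnd3* (66.45 RPKM) and *Ccna2* (24.18 RPKM). The spermatogonial marker sum of mouse 614 was 301.3 RPKM, the highest of the 6 primary spermatocyte libraries. The part of these marker levels in the cyclin levels was not tested.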

How the results depend on the processing

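Of 1821 alternative values of the cyclins' log2 differences none changed the sign of a called difference, 54 lost and 16 gained a call, and 107 that were called under neither setting changed sign. Of 153 alternative ratio differences 5 were marked as moved. The mark meant a changed sign with no call. Where the smallest possible p was above 0.05, it meant a move of at least the larger SD of the stages compared. The number of genes called moved more. Between primary spermatocytes and spermatogonia (6203 called) it was 0 in knockout libraries alone. Between secondary and primary spermatocytes (1747) it was 4207 with the mouse as replicate block, 4481 with the quantification group, 0 in wildtype and 12 in knockout libraries alone, 2701 with 1 coding transcript per gene and 3990 without spermatogonia 544 and mouse 613. Between spermatids and secondary spermatocytes (235) it was 59 with quantile normalization, 27 with a pseudocount of 1, 141 with no filter, 1476 with the replicate block, 2007 with the quantification group, 0 in either genotype alone, 137 with transcripts free of overlap, 626 with 1 coding transcript and 996 without spermatogonia 544 and mouse 613. Between spermatids and spermatogonia it was 0 in knockout libraries alone. Between genotypes in sorted cells (2) it was 1 with a pseudocount of 1, a filter at 1 RPKM or the block, 0 with coding transcripts only or 1 coding transcript, and 10 with the quantification group. The cause was not tested. Transcripts free of overlap, 1 coding transcript, and leaving out spermatogonia 544 with mouse 613 were chosen after seeing the data.

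Leaving out libraries or mice gave 3312 (without mouse 648) to 7721 (without knockout spermatogonia 544) calls for primary spermatocytes against spermatogonia, 257 (without mouse 550) to 2977 (without mouse 613) for secondary against primary spermatocytes, 0 (without mouse 178) to 696 (without mouse 613) for spermatids against secondary spermatocytes, 6403 to 10545 for spermatids against spermatogonia, 1 to 384 (without mouse 286) between genotypes in sorted cells, and 0 to 0 in whole testes, for the interaction and for the ratios. With the replicate block only *Ccne2* (spermatids against secondary spermatocytes) and *Ccnd3* (spermatids against spermatogonia) changed a call. With the quantification group *Ccna1* lost its call into primary spermatocytes (1.69, adjusted p = 0.0614). The interaction was not refitted with the block, the quantification group or whole mice left out. No single ratio step could pass alone in the fits with mice left out, as fewer libraries raise the smallest p of the permutation test. Depth is unknown for mouse 613.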
